A study of Homo sapiens with 28 samples.

Results

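The comparison described here is between 2 culture labels, CT1.0 and CT0.4, in human neural progenitors that lack SOX1, on day 4 of differentiation. Its members are the 4 libraries of SOX1-/- cells (KO) that carry these labels on that day, of 28 libraries in all. KO CT1.0 and KO CT0.4 each hold a library numbered 26 and one numbered 48. They are called lines here because the numbers belong to the KO part of the sample names on every day, but the labels do not say whether they are clones or cultures. The cells derive from H9, an established human embryonic stem cell line. SOX1 is an early marker of neural tissue and encodes a member of the SOX B family of transcription factors. The study asked how its loss changes early neural differentiation and the regional identity of the progenitors. Its other groups are undifferentiated (ES) cells on day 0 and cells under the label IWP2, the name of an inhibitor of WNT secretion, in KO and in wild type (WT) H9 cells on days 4 and 8. The labels do not spell out CT or give its number a unit. Each of the 14 groups holds 2 libraries, so p-values measure the spread between a pair of libraries, which may be technical. In the sentences below a pair of KO values is always line 26 and then line 48.

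Along the neural tube, position from head to tail is set by diffusible signals that grade between its ends. WNT, FGF and retinoic acid signals favour posterior fates, and forebrain and midbrain genes such as OTX2 persist where these signals are weak or opposed. OTX2 in front and GBX2 behind meet at the midbrain-hindbrain boundary, the isthmus, which secretes FGF8 and WNT1, and genes of the HOX clusters mark the hindbrain and spinal cord behind it. CYP26A1 encodes an enzyme that degrades retinoic acid and is itself induced by it, and SP5 and AXIN2 are common transcriptional targets of WNT signalling.

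Expression was deposited as TPM, a transcript level scaled for length and to a fixed total. The read depth behind it is unknown, and it can be compared between genes. A gene was tested if it reached 1 TPM in at least 2 of the 4 libraries, which 20630 of 58219 genes did. Differences are log2 fold changes of TPM + 1, tested with limma; on this scale the change of a gene near 0 TPM comes out too small, and a gene is called at a Benjamini-Hochberg adjusted p under 0.05. The 4 libraries had 19584 to 20338 genes at 1 TPM or more and size factors of 0.989 to 1.04. Genes of ribosomal proteins held 26.3 and 26.9% of TPM in KO CT1.0, against 24.6 and 22.9% in KO CT0.4. Mitochondrial genes held 4.96 and 4.81% of TPM in KO CT1.0, against 5.92 and 6.3% in KO CT0.4. The part of either share in the results was not tested. In bulk RNA, fewer cells of a type and less RNA per cell cannot be told apart.

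In KO CT1.0 on day 4, the forebrain and midbrain transcription factor genes OTX2, PAX6 and FEZF1 were lower than in KO CT0.4, by 2.08 or more on the log2 scale. Some other called genes of this kind, among them DMBX1, FEZF2 and LHX5, fell less. HOTAIRM1 of the HOXA cluster and the retinoic acid-degrading enzyme gene CYP26A1 were higher, and the midbrain-hindbrain genes EN1 and PAX2 were not called. Of all genes tested, 622 were called (3.02%), 228 higher in CT1.0 (1.11%) and 394 lower (1.91%), and the median log2 fold change over all tested genes was -0.02. Among the called genes 149 higher and 347 lower ones were protein-coding. Of the called genes 281 (1.36% of those tested) changed by 1 or more on the log2 scale. These calls rest on a spread estimated over all 28 libraries. With limma fitted to the 4 libraries alone, 0 genes were called, although 1166 were higher and 1390 lower at an unadjusted p under 0.05, and with the 14 KO libraries 67 higher and 69 lower genes were called. Single libraries also moved the counts, to 39 higher and 47 lower without line 48 of KO CT1.0, 66 higher and 80 lower without line 48 of KO CT0.4, and 103 higher and 179 lower without line 26 of KO CT0.4.

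SOX1 itself was low under both labels. KO CT1.0 held 0.705 and 3.08 TPM of SOX1, against 0.866 and 1.49 TPM in KO CT0.4. The ranges overlapped and the difference was not called (log2 fold change 0.29 ± 0.36 SE, adjusted p = 0.756). In WT cells on the same day SOX1 stood at 84 and 98 TPM in CT1.0, against 4.88 and 7 TPM in CT0.4. By limma 0 of the 4 SOX B genes tested were called and 2 had an unadjusted p under 0.05, which 3562 of all 20630 genes tested had. SOX2, a regulator of pluripotent and neural stem cells, held 276 and 285 TPM in KO CT1.0, against 346 and 369 TPM in KO CT0.4.

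The label neural progenitors was checked against genes of that state. NES and VIM encode intermediate filaments of neural progenitors. NES was at 210 and 396 TPM in KO CT1.0, against 220 and 333 TPM in KO CT0.4, and VIM at 524 and 506 TPM in KO CT1.0, against 503 and 469 TPM in KO CT0.4. Neither was called. Of the 16 genes of a pan-neural list all were tested, 1 was called higher and 4 lower, with a median of -0.20. The largest fall of the list was in PAX6, described with the forebrain genes. Next came CDH2, the neural cadherin, at 106 and 94.6 TPM in KO CT1.0, against 181 and 214 TPM in KO CT0.4 (log2 fold change -0.97 ± 0.12 SE, adjusted p = 0.000308).

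OTX2, a homeodomain factor of forebrain and midbrain (GRCh38, GENCODE 29: chr14:56799905-56810479, minus strand), held 151 and 58.5 TPM in KO CT1.0, against 394 and 489 TPM in KO CT0.4. Both CT1.0 lines lay below both CT0.4 lines, line 48 further than line 26. The fold change was -2.21 ± 0.36 (SE, log2, adjusted p = 0.00349). Its paralogue OTX1 held 42 and 13.8 TPM in KO CT1.0, against 129 and 128 TPM in KO CT0.4 (log2 -2.36, adjusted p = 0.00335). DMBX1, a homeodomain factor of the midbrain, held 38.8 and 15.9 TPM in KO CT1.0, against 73.2 and 97 TPM in KO CT0.4 (log2 -1.72, adjusted p = 0.00385). All 3 genes were lower in CT1.0 in both lines and still above 10 TPM. None of these genes was called, and the fold changes were smaller, without line 48 of KO CT1.0 (OTX2 -1.53, adjusted p = 0.0717; OTX1 -1.59, adjusted p = 0.0679; DMBX1 -1.10, adjusted p = 0.0679). The adjusted p was 0.0515 for OTX2 and 0.0635 for DMBX1 without line 48 of KO CT0.4.

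**Figure D1:**
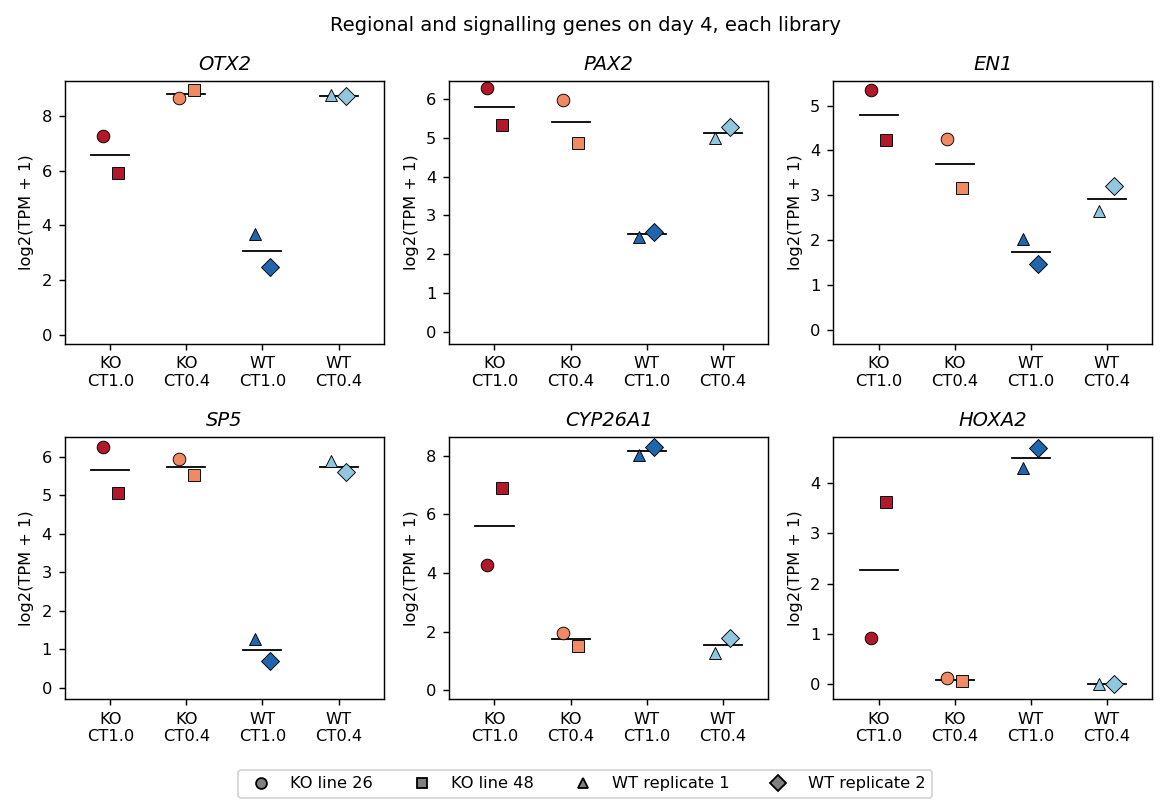
Levels of OTX2, PAX2, EN1, SP5, CYP26A1 and HOXA2 on day 4 as log2(TPM + 1), 1 point per library, with black bars at the mean of each pair. In KO, OTX2 is lower and CYP26A1 higher in CT1.0 than in CT0.4, while PAX2, EN1 and SP5 overlap between the labels. In WT CT1.0, OTX2, PAX2 and SP5 lie far below their WT CT0.4 levels.

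PAX6, a paired-type factor of forebrain and eye (chr11:31784779-31818062, minus strand), fell furthest among the regional genes listed. It held 4.22 and 8.49 TPM in KO CT1.0, against 61.5 and 85.8 TPM in KO CT0.4 (log2 fold change -3.39 ± 0.34 SE, adjusted p = 6.98e-05). The groups were far apart and both lines gave a difference of like size. Of a forebrain list of 16 genes, 8 were tested and 6 of them fell, with a median of -1.58. FEZF1, a zinc finger factor of the anterior forebrain, held 20.9 and 10.9 TPM in KO CT1.0, against 81.5 and 55.9 TPM in KO CT0.4 (log2 -2.08, adjusted p = 0.000328). EMX2, a factor of the dorsal forebrain, held 3.86 and 1.66 TPM in KO CT1.0, against 17.6 and 13 TPM in KO CT0.4 (log2 -2.16, adjusted p = 0.00269).

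FEZF2, DLX5 and LHX5, further forebrain factors, fell as well (log2 -1.74, -1.43 and -1.40; adjusted p = 0.014, 0.00415 and 0.0459). HESX1 and SFRP2 were not called (log2 -0.40 each). SIX3, a factor of the anterior forebrain, was below 1 TPM in all 4 libraries, as were 7 of the 16 genes in all, among them SIX6 and NKX2-1 at 0. Only PAX6 and FEZF1 of the forebrain genes named here were called whichever library was left out. Without line 48 of KO CT1.0 the adjusted p was 0.0683 for EMX2, 0.0679 for DLX5 and 0.372 for LHX5. Without line 26 of KO CT1.0 it was 0.119 for FEZF2. Without line 48 of KO CT0.4 it was 0.105 for FEZF2 and LHX5, and without line 26 of KO CT0.4 it was 0.0578 for FEZF2 and 0.225 for LHX5.

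Among posterior and retinoic acid genes, HOTAIRM1 and CYP26A1 rose most. HOTAIRM1 is a long noncoding RNA of the HOXA cluster (chr7:27095647-27100265, plus strand). It held 5.81 and 49.9 TPM in KO CT1.0, against 0.335 and 0 TPM in KO CT0.4 (log2 fold change 4.01 ± 0.57 SE, adjusted p = 0.000863). HOXA2, a hindbrain gene that lies next to it on the other strand (chr7:27100354-27102811), stood at 0.899 and 11.3 TPM in KO CT1.0, against 0.0795 and 0.0437 TPM in KO CT0.4. It reached 1 TPM in line 48 of CT1.0 alone and was therefore not tested. The counting is not stated to use strand, so reads of neighbouring genes on opposite strands may not be separable at their ends. Of the 15 genes of an anterior HOX list, 13 were below 1 TPM in all 4 libraries, and all 18 genes of a list of posterior HOX and CDX genes were below 1 TPM.

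CYP26A1 (chr10:93073475-93077890, plus strand) held 18.4 and 118 TPM in KO CT1.0, against 2.86 and 1.88 TPM in KO CT0.4 (log2 fold change 3.85 ± 0.54 SE, adjusted p = 0.00083). Both CT1.0 lines lay above both CT0.4 lines, and line 48 was again the further one. CRABP2, a retinoic acid carrier, held 512 and 518 TPM in KO CT1.0, against 374 and 264 TPM in KO CT0.4 (log2 0.71, adjusted p = 0.0396). These were the called members among 10 tested genes of a retinoic acid list, whose median was 0.24. RARB, a receptor and a target of retinoic acid, stood at 0.889 and 5.43 TPM in KO CT1.0, against 0.265 and 0.381 TPM in KO CT0.4, and was not tested because it reached 1 TPM in 1 library. MEIS2, a HOX cofactor, was the called member among 5 tested rostral hindbrain genes, whose median was -0.34. It stood at 25.7 and 46.7 TPM in KO CT1.0, against 12.5 and 7.42 TPM in KO CT0.4 (log2 1.75, adjusted p = 0.00162). HOTAIRM1, CYP26A1 and MEIS2 were called whichever library was left out. The call of CRABP2 ended without line 48 of KO CT0.4 (adjusted p = 0.322), line 48 of KO CT1.0 (0.208) or line 26 of KO CT1.0 (0.115).

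Genes of the isthmus divided. EN1, a homeodomain factor of the midbrain-hindbrain territory (chr2:118842171-118847678, minus strand), held 39.9 and 17.9 TPM in KO CT1.0, against 18 and 7.96 TPM in KO CT0.4. PAX2, an early organiser of that territory (chr10:100735603-100829941, plus strand), held 76.3 and 39.2 TPM in KO CT1.0, against 61.7 and 28.2 TPM in KO CT0.4. Each was higher in CT1.0 within each line, but the groups overlapped because line 26 was the higher line under both labels. Neither was called (EN1 log2 1.09 ± 0.38 SE, adjusted p = 0.139; PAX2 log2 0.38 ± 0.37 SE, adjusted p = 0.662). WNT1, the WNT ligand of the isthmus, was not called either (50.5 and 25.6 TPM in KO CT1.0, against 32 and 17.1 TPM in KO CT0.4).

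Other isthmic and anterior hindbrain genes rose. GBX2, which marks the hindbrain side of the boundary, held 1.79 and 5.76 TPM in KO CT1.0, against 0.0697 and 0.206 TPM in KO CT0.4 (log2 fold change 1.94 ± 0.39 SE, adjusted p = 0.0126). FGF8, the secreted signal of the isthmus, held 21.9 and 25.5 TPM in KO CT1.0, against 11.2 and 3.94 TPM in KO CT0.4 (log2 1.67, adjusted p = 0.0124). PAX8, a paired factor of the same territory, held 54.3 and 42.9 TPM in KO CT1.0, against 15.2 and 6.96 TPM in KO CT0.4 (log2 2.12, adjusted p = 0.0297). In these genes the labels did not overlap, which was so for 45.3% of all tested genes (20.2% with CT1.0 higher and 25.1% with it lower). With PAX5 (log2 0.92, adjusted p = 0.032) and FGF17 (log2 0.98, adjusted p = 0.0456), 5 of the 15 tested genes of the midbrain-hindbrain list rose and 3, OTX1, OTX2 and DMBX1, fell. Among targets and feedback regulators of FGF signalling, 2 of 10 tested genes rose. They were DUSP6, a phosphatase of the ERK pathway (17.3 and 27.4 TPM in KO CT1.0, against 7.97 and 4.47 TPM in KO CT0.4; adjusted p = 0.0191), and SPRY2 (29.2 and 34.7 TPM in KO CT1.0, against 17.8 and 15.2 TPM in KO CT0.4; log2 0.91, adjusted p = 0.00212).

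The calls of these 7 genes rest on single libraries. Without line 48 of KO CT1.0 none of the 7 was called (adjusted p from 0.0573 for SPRY2 to 0.211 for DUSP6), and without line 48 of KO CT0.4 only SPRY2 was (from 0.071 for GBX2 to 0.239 for PAX8 in the others). Without line 26 of KO CT0.4 the calls of GBX2 (0.073), PAX5 (0.0553) and FGF17 (0.111) ended, and without line 26 of KO CT1.0 those of PAX8 (0.125), PAX5 (0.164) and FGF17 (0.247). With the 14 KO libraries alone SPRY2 was the called one of the 7 (adjusted p from 0.0785 for DUSP6 to 0.16 for PAX5 in the others), and with a pseudocount of 0.1 PAX8 (0.0931), PAX5 (0.248) and FGF17 (0.349) were not called.

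Of 12 tested WNT feedback genes 2 were called, both lower in CT1.0, and the median of the 12 was -0.27. SP5 (chr2:170715351-170718078, plus strand) held 75 and 32.5 TPM in KO CT1.0, against 60.1 and 45.4 TPM in KO CT0.4, and the CT0.4 values lay between the CT1.0 values (log2 fold change -0.08 ± 0.54 SE, adjusted p = 0.973). AXIN2 held 56.9 and 45.4 TPM in KO CT1.0, against 73.5 and 63.5 TPM in KO CT0.4 (adjusted p = 0.277). DKK1, a secreted inhibitor of WNT receptors (chr10:52314296-52318042, plus strand), fell to 3.13 and 0.586 TPM in KO CT1.0, against 28.3 and 12.2 TPM in KO CT0.4 (log2 -2.94 ± 0.38 SE, adjusted p = 0.00035). SP8, a zinc finger factor related to SP5, fell to 60.1 and 38.5 TPM in KO CT1.0, against 116 and 128 TPM in KO CT0.4 (log2 -1.32, adjusted p = 0.00349; 0.0809 without line 48 of KO CT1.0). Among WNT ligands and their carrier, 2 of 9 tested genes fell. WNT5B held 8.46 and 5.34 TPM in KO CT1.0, against 40.1 and 43 TPM in KO CT0.4 (log2 -2.46, adjusted p = 0.000264). WNT7B was low, at 0.325 and 0.687 TPM in KO CT1.0, against 2.75 and 3.5 TPM in KO CT0.4 (log2 -1.46, adjusted p = 0.0146), and its call ended without line 48 of KO CT0.4 (0.121), line 26 of KO CT1.0 (0.0885) or line 48 of KO CT1.0 (0.0717).

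The promoters of SP5, DKK1 and SP8 are shown, the WNT feedback genes whose available window held a match to the motif given below. Of these genes DKK1 and SP8 were called lower in CT1.0 and SP5 was not called. Each window runs from 250 bases before to 50 bases after the start of the gene, from RefSeq on GRCh38.p14, written 5′ to 3′ on the strand of the gene. Capitals mark CTTTGA, the core bound by TCF/LEF factors, or its reverse complement TCAAAG, searched on both strands. SP5 is at chr2:170715087-170715386 on the plus strand, DKK1 at chr10:52314031-52314330 on the plus strand and SP8 at chr7:20786837-20787136 on the minus strand.
SP5: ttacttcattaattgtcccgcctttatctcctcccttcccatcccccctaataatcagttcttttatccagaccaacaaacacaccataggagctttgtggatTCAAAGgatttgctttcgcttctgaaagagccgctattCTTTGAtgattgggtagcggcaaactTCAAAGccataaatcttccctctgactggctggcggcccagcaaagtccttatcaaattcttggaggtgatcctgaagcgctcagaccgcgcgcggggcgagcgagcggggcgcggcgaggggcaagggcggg
DKK1: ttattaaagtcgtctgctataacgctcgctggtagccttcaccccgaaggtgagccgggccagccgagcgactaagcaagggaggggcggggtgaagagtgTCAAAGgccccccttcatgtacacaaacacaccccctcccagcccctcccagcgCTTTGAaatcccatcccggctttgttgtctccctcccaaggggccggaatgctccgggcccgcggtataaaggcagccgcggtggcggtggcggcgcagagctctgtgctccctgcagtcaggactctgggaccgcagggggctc
SP8: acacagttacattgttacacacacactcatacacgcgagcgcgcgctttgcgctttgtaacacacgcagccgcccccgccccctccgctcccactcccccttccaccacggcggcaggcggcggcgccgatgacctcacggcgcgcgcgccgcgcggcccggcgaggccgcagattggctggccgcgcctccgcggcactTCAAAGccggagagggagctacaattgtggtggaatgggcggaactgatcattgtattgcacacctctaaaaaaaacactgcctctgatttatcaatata
The SP5 window holds 3 matches, that of DKK1 2 and that of SP8 1. Of 34943 windows of this length, 12.9% hold at least 1 match, 1.29% at least 2 and 0.1% at least 3. Of the 16 WNT feedback genes, 7 had a window available and 3 of these a match, and those 3 are the ones shown. The windows of LEF1, APCDD1, WIF1 and SFRP5 held 0 matches. A match is a stretch of letters and not evidence of binding in these cells.

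Dorsal and ventral patterning genes moved in few members. RSPO2, a secreted enhancer of WNT signalling, LMX1A and MSX1, factors of the roof plate and dorsal midline, fell (log2 -2.45, -1.73 and -1.68; adjusted p = 0.00619, 0.0195 and 0.0119). Of 10 tested dorsal genes 4 were called, 3 of them lower, with a median of -0.45. RSPO2 held 8.8 and 2.5 TPM in KO CT1.0, against 25 and 38.5 TPM in KO CT0.4. The labels did not overlap. NKX6-1, a ventral factor, fell (2.49 and 0.571 TPM in KO CT1.0, against 7.27 and 8.27 TPM in KO CT0.4; log2 -1.90, adjusted p = 0.00979), alone among 5 tested ventral genes, while FOXA2 and SHH were below 1 TPM in all 4 libraries. Without line 48 of KO CT1.0 the adjusted p was 0.134 for RSPO2, 0.233 for LMX1A, 0.182 for MSX1 and 0.168 for NKX6-1. Without line 48 of KO CT0.4 it was 0.0819 for RSPO2, 0.0716 for MSX1 and 0.0815 for NKX6-1. Without line 26 of KO CT0.4 it was 0.152 for LMX1A and 0.0675 for MSX1.

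The highest and lowest called genes included several outside these lists. VGLL3, a cofactor of TEAD transcription factors, held 23.6 and 134 TPM in KO CT1.0, against 2.68 and 2.38 TPM in KO CT0.4 (log2 fold change 4.03 ± 0.51 SE, adjusted p = 0.000348). SPOCK1, a secreted proteoglycan, held 11.8 and 74.4 TPM in KO CT1.0, against 3.2 and 2.69 TPM in KO CT0.4 (log2 2.98, adjusted p = 0.00267). FGFBP3, an FGF-binding protein, held 64.2 and 168 TPM in KO CT1.0, against 12.2 and 16.1 TPM in KO CT0.4 (log2 2.81, adjusted p = 0.00029). In all 3 the CT1.0 lines lay above the CT0.4 lines, and line 48 was the higher CT1.0 line. SHISA2, an antagonist of FGF and WNT receptor maturation first described in frog, fell to 14.6 and 4.57 TPM in KO CT1.0, against 103 and 91.7 TPM in KO CT0.4 (log2 -3.40 ± 0.32 SE, adjusted p = 3.67e-05). VSNL1, a neuronal calcium sensor, fell to 12.9 and 3.68 TPM in KO CT1.0, against 47.5 and 62.5 TPM in KO CT0.4 (log2 -2.79, adjusted p = 0.000657). EPHA7, an ephrin receptor, had the lowest adjusted p of the genes named here (16.2 and 9.96 TPM in KO CT1.0, against 57.2 and 79 TPM in KO CT0.4; log2 -2.31, adjusted p = 6.86e-06). All 6 genes were called whichever library was left out, but SPOCK1 was not called with the 14 KO libraries alone (0.0617).

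Other protein-coding genes with large calls were APOC4 and SFRP4 on the higher side (log2 2.63 and 2.28) and LMO1, BARHL1, NRIP3 and MAB21L2 on the lower side (log2 -2.31, -2.30, -2.27 and -2.23). CNTN2, a neuronal cell adhesion molecule, fell as well (log2 -2.47, adjusted p = 0.0151). SFRP4 was not called without line 48 of KO CT1.0 (0.0865), and CNTN2 without line 48 of KO CT1.0 (0.216), line 48 of KO CT0.4 (0.109) or line 26 of KO CT0.4 (0.0639). Short RNA genes were also among the extremes. The libraries were poly(A)-selected and read as 2x100 or 2x150 bases, so TPM of such genes may not measure their mature RNA. MIR4261 was at 18.6 and 17 TPM in KO CT1.0, MIR3662 at 6.77 and 25.3 TPM and MIR6165 at 12.8 and 2.55 TPM, and all 3 were listed at 0 in both lines of KO CT0.4. MIR1262 and PVT1_1 were listed at 0 in both CT1.0 lines, against 2.06 and 9.16 TPM of MIR1262 and 6.05 and 6.03 TPM of PVT1_1 in KO CT0.4, and MIR4787 stood at 2.57 and 0 TPM in KO CT1.0, against 27.1 and 13 TPM in KO CT0.4. No fold is given for genes listed at 0. Of these 6 only PVT1_1 was called whichever library was left out.

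**Figure D2:**
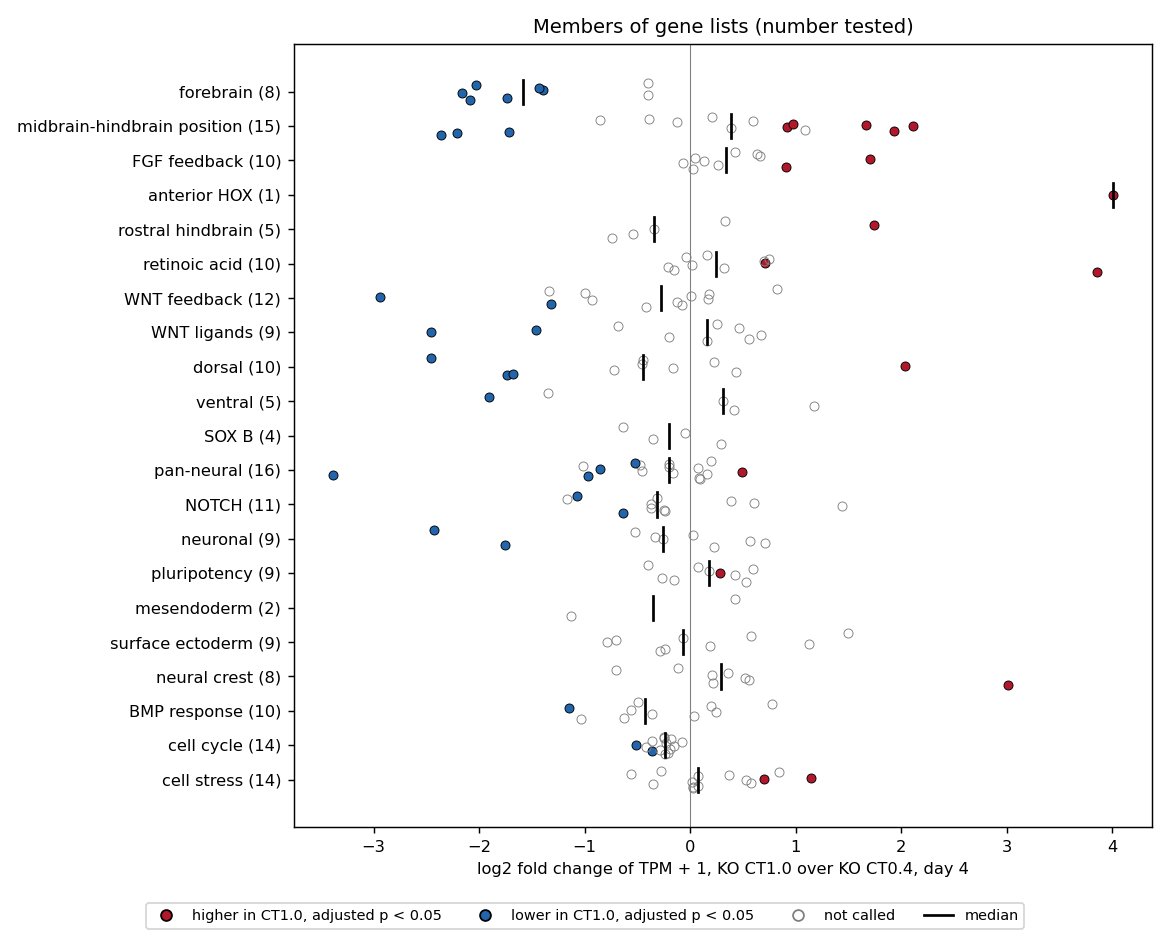
Log2 fold change of TPM + 1, KO CT1.0 over KO CT0.4 on day 4, for the tested members of each gene list, with filled points for called genes and a bar at the median. The forebrain list has its median at -1.58 with 6 of 8 genes called lower, and the midbrain-hindbrain list has 5 genes called higher and 3 lower.

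Neuronal and other lists gave few calls. POU4F1, a factor of sensory and midbrain neurons, held 16.3 and 8.95 TPM in KO CT1.0, against 55.1 and 87.7 TPM in KO CT0.4 (log2 -2.43, adjusted p = 0.000444). NEUROD4, a proneural factor, was at 0.025 and 0 TPM in KO CT1.0, against 2.03 and 2.88 TPM in KO CT0.4 (adjusted p = 0.000657). These were the called members of 9 tested neuronal genes, and the abundant TUBB3 and MAP2 were not called. Of 11 tested NOTCH genes the receptor NOTCH1 and its modifier LFNG fell (log2 -0.64 and -1.07), of 14 cell cycle genes CCNB1 and PLK1 fell (log2 -0.36 and -0.51), and of 10 tested BMP response genes BMP2 fell (log2 -1.15). All 5 calls ended without line 48 of KO CT1.0 (adjusted p from 0.0679 for NOTCH1 to 0.311 for CCNB1) and without line 48 of KO CT0.4 (from 0.0666 for NOTCH1 to 0.347 for LFNG). Without line 26 of KO CT1.0 all but PLK1 ended (from 0.0528 for CCNB1 to 0.138 for LFNG), and without line 26 of KO CT0.4 all but LFNG (from 0.0718 for NOTCH1 to 0.118 for BMP2). In the pan-neural list ZBTB16 and ZNF521 were called lower and SOX11 higher (log2 -0.85, -0.52 and 0.49). Leaving out any of the 4 libraries ended the calls of ZBTB16 (adjusted p 0.0638 to 0.0964) and ZNF521 (0.116 to 0.218), and leaving out any but line 26 of KO CT1.0 ended that of SOX11 (0.0736 to 0.265).

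Markers of other cell states were checked beside these results. Mesendoderm genes summed to 4.59 and 3.75 TPM in KO CT1.0, against 6.61 and 5.52 TPM in KO CT0.4, with 2 of 15 tested. By limma 0 of them were called and 1 had an unadjusted p under 0.05, and GATA4 and MSGN1 were at 0. Surface ectoderm genes summed to 146.7 and 124.2 TPM in KO CT1.0, against 162.8 and 127 TPM in KO CT0.4, with 9 of 12 tested. By limma 0 of them were called and 6 had an unadjusted p under 0.05, with a median of -0.07. Of all 20630 genes tested, 3562 had an unadjusted p under 0.05. The cadherin gene CDH1 (log2 1.49, adjusted p = 0.0507) and the keratin gene KRT7 were not called. Both were higher in CT1.0 under all 16 alternative settings (log2 1.28 to 2.66 and 1 to 3.31), and each was called under some of them. KRT5 was the only 1 of the 12 genes at 0 in all 4 libraries. Neural crest genes summed to 102.3 and 137.8 TPM in KO CT1.0, against 93.1 and 98.9 TPM in KO CT0.4. Of the 8 tested, SNAI2 alone was called, at 8.3 and 26.3 TPM in KO CT1.0, against 1.2 and 0.777 TPM in KO CT0.4 (log2 3.01, adjusted p = 0.00026), while FOXD3, SOX10 and TWIST1 were below 1 TPM in all 4 libraries.

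Pluripotency genes summed to 1447 and 1194 TPM in KO CT1.0, against 1415 and 1374 TPM in KO CT0.4, and 1 of 9 tested was called, DPPA4 (128 and 128 TPM in KO CT1.0, against 104 and 106 TPM in KO CT0.4; log2 0.28), whose call ended without any of the 4 libraries (adjusted p 0.1 to 0.18). NANOG was below 1 TPM in all 4 libraries. POU5F1, a core pluripotency factor, remained at 60.7 and 60.1 TPM in KO CT1.0, against 53.3 and 32.2 TPM in KO CT0.4, and was not called. Cell stress genes summed to 1357 and 1394 TPM in KO CT1.0, against 1039 and 1051 TPM in KO CT0.4. The heat shock genes HSPA1B and HSPA1A rose (log2 1.14 and 0.70; adjusted p = 0.000528 and 0.0102), 2 of 14 tested. They are near-identical copies whose reads may be split between them. The part of these states in the regional differences was not tested. The call of HSPA1A ended without line 48 of KO CT1.0 (0.0619), line 26 of KO CT1.0 (0.0669) or line 48 of KO CT0.4 (0.0816).

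Line 48 differed more between the labels than line 26 in most called genes. In line 48 the difference between the labels was larger than in line 26 for 302 of the 394 genes called lower (76.6%), against 60.5% of all tested genes with a negative fold change. It was larger for 140 of the 228 genes called higher (61.4%), against 48.1% of all tested genes with a positive one. The medians over the genes called lower were -0.54 in line 26 and -0.80 in line 48, and over those called higher 1.08 and 1.40. These are descriptions of a pair of libraries per label, and the lines were not tested against each other. Genes that were not called could differ in direction between the lines, as SP5 and NES did. The lines differed by 2-fold or more in 9.7% of tested genes in KO CT1.0 and in 9.96% in KO CT0.4. Across genes, which are not independent replicates, the lines correlated at 0.949 in KO CT1.0 and 0.951 in KO CT0.4, and the labels at 0.948 within line 26 and 0.937 within line 48.

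**Figure D3:**
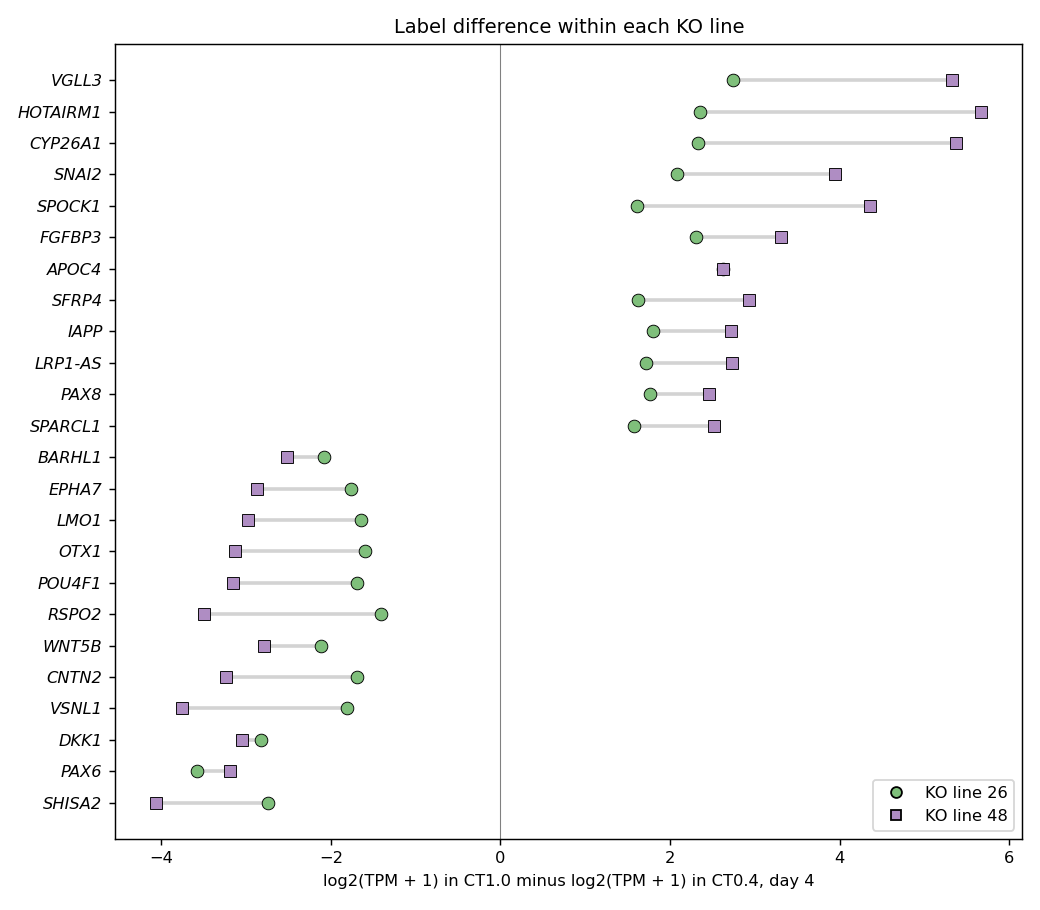
Difference in log2(TPM + 1) between CT1.0 and CT0.4 on day 4 within KO line 26 (circles) and KO line 48 (squares), for the 12 highest and 12 lowest called protein-coding and long RNA genes. Line 48 lies further from 0 than line 26 in most of them, with PAX6 the other way and APOC4 equal.

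The same labels were next compared in WT, to ask whether the difference depends on SOX1. In WT CT1.0 on day 4, OTX2 stood at 11.8 and 4.55 TPM and HOXA2 at 18.5 and 24.8 TPM. Of 22103 genes tested for a difference between KO and WT in the label difference, 91 were called (0.412%), 62 higher in KO (0.281%) and 29 lower (0.131%). With a library left out, between 5 and 190 were higher and between 2 and 132 lower. The lowest counts came without WT CT0.4 replicate 2, the most higher genes without line 48 of KO CT0.4 and the most lower genes without line 48 of KO CT1.0. With limma on the 8 libraries alone 0 were called, and at an unadjusted p under 0.05 there were 1710 higher and 899 lower. The 4 WT libraries stood apart in this series, with 17694 to 18233 genes at 1 TPM or more, against 18876 to 20338 in the other 24. Their size factors were 0.862 and 0.926 in WT CT0.4 and 0.818 and 0.855 in WT CT1.0. All were below the 0.989 to 1.04 of the KO libraries compared. Only 0.926 reached the range of the other 24 libraries, whose lowest was 0.92. With median-ratio scaling 61 genes were higher and 68 lower. The part of the gene number in the result was not tested.

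OTX2 held 151 and 58.5 TPM in KO CT1.0 and 394 and 489 TPM in KO CT0.4, and 11.8 and 4.55 TPM in WT CT1.0 and 427 and 414 TPM in WT CT0.4. Both genotypes had like levels in CT0.4, and both KO lines were above both WT libraries in CT1.0. The label difference in KO minus that in WT was 3.43 ± 0.52 (SE, log2, adjusted p = 0.011). OTX1, DMBX1, SHISA2 and LHX5 showed the same pattern, with KO minus WT differences of 3.09, 3.11, 2.58 and 3.25 (adjusted p = 0.0223, 0.00702, 0.0195 and 0.0168). LHX5-AS1, the antisense partner of LHX5, gave 3.38 (adjusted p = 0.0405). The counting is not stated to use strand, so reads of the pair may not be fully separable.

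SP5 and PAX2 fell in WT alone by the test of each genotype, and the difference itself was called. SP5 held 75 and 32.5 TPM in KO CT1.0 and 60.1 and 45.4 TPM in KO CT0.4, and 1.39 and 0.61 TPM in WT CT1.0 and 58.4 and 47.6 TPM in WT CT0.4 (KO minus WT 4.70 ± 0.77 SE, adjusted p = 0.0188). PAX2 held 4.48 and 4.93 TPM in WT CT1.0 and 30.7 and 38 TPM in WT CT0.4 (KO minus WT 3.01 ± 0.52 SE, adjusted p = 0.0195). EN1 held 3.09 and 1.76 TPM in WT CT1.0 and 5.32 and 8.19 TPM in WT CT0.4, and its KO minus WT difference of 2.27 was not called (adjusted p = 0.0707). It was called without line 48 of KO CT1.0 (0.0141) and with protein-coding genes alone (0.0367).

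Genes with a smaller or opposite label difference in KO were led by SFRP4, a secreted WNT antagonist, at 2.09 and 8.31 TPM in KO CT1.0 and 0 and 0.216 TPM in KO CT0.4, and 63.9 and 86 TPM in WT CT1.0 and 0.0553 and 0.0864 TPM in WT CT0.4 (KO minus WT -3.85 ± 0.56 SE, adjusted p = 0.00966). SOX1 gave -3.45 (adjusted p = 0.011). It is the gene that the KO cells lack, so a smaller label difference in KO follows from the design. SOX3, another SOX B gene, gave -1.82 (adjusted p = 0.0378). It held 6.5 and 10 TPM in KO CT1.0 and 9.38 and 7.46 TPM in KO CT0.4. In WT it held 24 and 28.2 TPM in CT1.0 and 6.62 and 7.18 TPM in CT0.4. FEZF2 moved in opposite directions, lower in CT1.0 in KO and higher in CT1.0 in WT (12.6 and 17.9 TPM in WT CT1.0 and 5.81 and 5.99 TPM in WT CT0.4; KO minus WT -2.95, adjusted p = 0.0195). The serotonin receptor gene HTR2C and the small nucleolar RNA gene SNORD15A gave -3.03 and -3.79 (adjusted p = 0.0195 and 0.00702). SNORD15A is a short RNA gene, so the limit given above for such genes holds for it too.

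CYP26A1 and HOXA2 were higher in WT CT1.0 than in KO CT1.0 without a call for the KO minus WT difference. CYP26A1 held 260 and 314 TPM in WT CT1.0 and 1.44 and 2.45 TPM in WT CT0.4 (KO minus WT -2.77 ± 0.77 SE, adjusted p = 0.112). HOXA2 held 18.5 and 24.8 TPM in WT CT1.0 and 0 TPM in the pair of WT CT0.4 libraries (adjusted p = 0.177). HOTAIRM1 and VGLL3 gave adjusted p = 0.312 and 0.114. Line 48 decided these values: without it in KO CT1.0 the differences for CYP26A1 and HOXA2 were -4.08 and -3.65, and the adjusted p was 0.00065 for CYP26A1, 0.000558 for HOXA2, 0.00144 for HOTAIRM1 and 0.000779 for VGLL3. PAX6 gave a difference of -0.26 ± 0.48 SE (adjusted p = 0.891), with 8.13 and 5.47 TPM in WT CT1.0 and 64.1 and 68.4 TPM in WT CT0.4, close to its KO values. GBX2, PAX8 and FGF8 were not called either (adjusted p = 0.254, 0.413 and 0.28).

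Of these 14 KO minus WT calls, those of DMBX1 and SNORD15A remained whichever library was left out. Without WT CT1.0 replicate 2 the other 12 ended (adjusted p from 0.0604 for OTX2 to 0.146 for SOX3), and without WT CT0.4 replicate 2 the same genes except SOX1 (from 0.0502 for SFRP4 to 0.115 for LHX5-AS1). Without line 26 of KO CT1.0, OTX1, SP5, PAX2, LHX5, LHX5-AS1, FEZF2, HTR2C and SOX3 were not called (from 0.0616 for HTR2C to 0.185 for LHX5-AS1). Without WT CT0.4 replicate 1, OTX1, SP5, LHX5-AS1, SHISA2, FEZF2, HTR2C and SOX3 were not called (from 0.0503 for OTX1 to 0.104 for LHX5-AS1), and without line 26 of KO CT0.4 the same genes except SP5 (from 0.0518 for FEZF2 to 0.133 for SOX3). Without WT CT1.0 replicate 1, PAX2 (0.0603), LHX5-AS1 (0.112) and SOX3 (0.0669) were not called, and without line 48 of KO CT0.4 LHX5-AS1 was not (0.0683). With a pseudocount of 0.1 the calls of HTR2C (0.0519), FEZF2 (0.0623), SOX1 (0.0711), SP5 (0.098), PAX2 (0.111) and SFRP4 (0.17) ended.

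**Figure D4:**
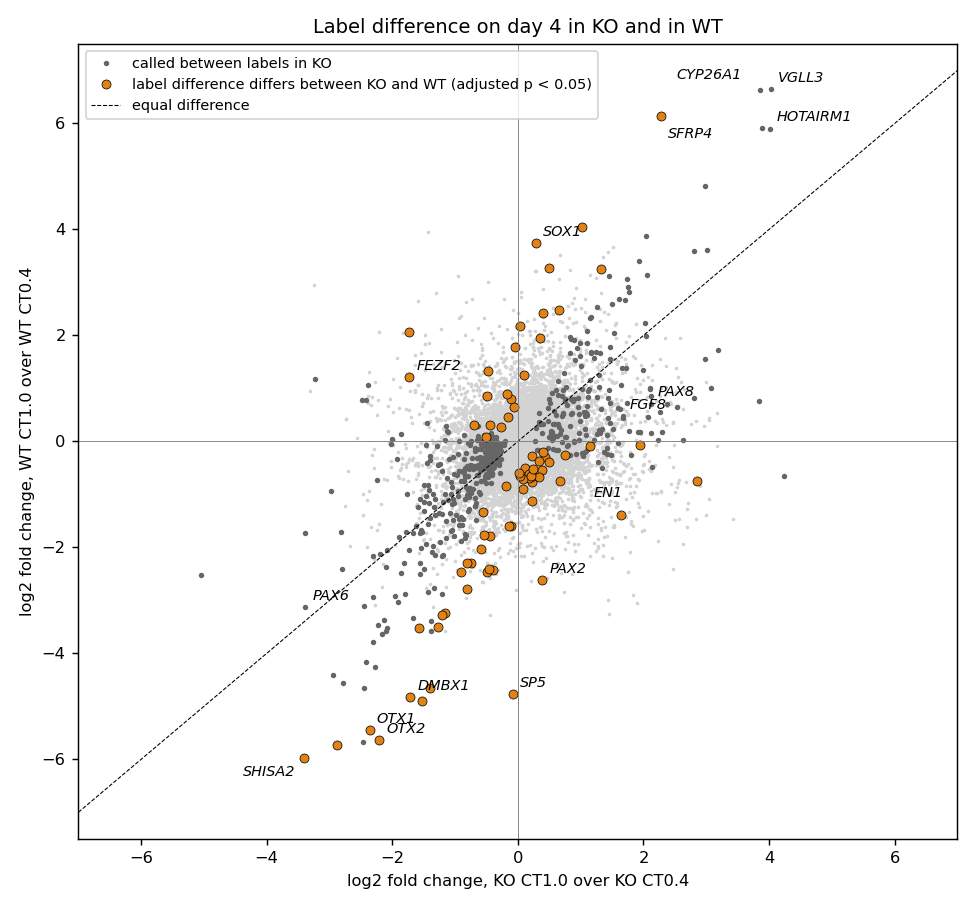
Log2 fold change of CT1.0 over CT0.4 on day 4 in KO (x axis) and in WT (y axis), 1 point per gene, with genes called in KO in dark grey, genes whose difference between KO and WT is called in orange, and the line of equal difference dashed. OTX2, OTX1, DMBX1 and SHISA2 lie far below the dashed line and SFRP4 and SOX1 above it, while PAX6 lies close to it.

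The KO and WT label differences share no library. Of 17823 genes tested in both, 532 were called in KO and 2040 in WT, where 11.5% of all tested genes were called (3.51% higher and 7.96% lower), and 296 in both, which is 55.6% of the KO calls and 14.5% of the WT calls. Of the 296, 291 had the same direction. The KO calls had the same sign in WT in 88.9%, against 60.5% of all genes. Over the genes called higher in WT the median fold change was 0.31 in KO and 0.91 in WT, and over those called lower it was -0.19 in KO and -0.61 in WT. The WT medians are raised by the choice of the genes on WT values, so the pairs do not measure the size of the KO effect.

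The label difference in KO was then compared between day 8 and day 4. Of 23298 genes, 2548 differed in the label difference between day 8 and day 4 (10.9%), 530 with a higher value on day 8 (2.27%) and 2018 with a lower one (8.66%). The median over all genes was -0.21, and median-ratio scaling, which moved it to -0.01, gave 851 higher and 998 lower. With the 8 libraries alone 138 were higher and 580 lower. The KO comparisons of day 8 and day 4 share no library: of 18778 genes tested in both, 362 were called on both days, and on day 8 32.9% of all tested genes were called (6.4% higher and 26.5% lower). The shared genes are 5.88% of the day 8 calls and 66.1% of the day 4 calls, and 329 of them had the same direction.

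EN1 and PAX2 were higher in CT1.0 than in CT0.4 in both KO lines on day 8, with no overlap. EN1 held 22.3 and 13.3 TPM in KO CT1.0 and 2.05 and 0.914 TPM in KO CT0.4 on day 8, against 39.9 and 17.9 TPM in KO CT1.0 and 18 and 7.96 TPM in KO CT0.4 on day 4 (day 8 minus day 4 1.83 ± 0.54 SE, adjusted p = 0.0361). PAX2 held 7.78 and 9.29 TPM in KO CT1.0 and 0.771 and 0.694 TPM in KO CT0.4 on day 8 (day 8 minus day 4 2.07 ± 0.52 SE, adjusted p = 0.0151). All 4 values of each gene on day 8 were below those of the same label and line on day 4. Leaving out libraries ended the call of EN1 without line 26 of KO CT0.4 (0.177) or line 48 of KO CT1.0 (0.173) of day 4 and without line 48 of KO CT0.4 (0.15) or line 26 of KO CT1.0 (0.147) of day 8. That of PAX2 ended without line 26 of KO CT0.4 (0.0863) or line 48 of KO CT1.0 (0.0834) of day 4. With the 14 KO libraries alone neither was called (EN1 0.127, PAX2 0.0671), and with a pseudocount of 0.1 EN1 was not (0.051).

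HOTAIRM1 held 147 and 178 TPM in KO CT1.0 and 0.131 and 0 TPM in KO CT0.4 on day 8 (day 8 minus day 4 3.25 ± 0.80 SE, adjusted p = 0.0141; 0.054 without line 26 of KO CT0.4 of day 4, 0.0903 with the 14 KO libraries alone and 0.142 with a pseudocount of 0.1). CYP26A1 held 39.5 and 69.3 TPM in KO CT1.0 and 0.28 and 0.146 TPM in KO CT0.4 on day 8, and HOXA2 7.6 and 17 TPM in KO CT1.0 and 0 in both KO CT0.4 lines. Neither was called between the days (adjusted p = 0.212 and 0.249), but without line 48 of KO CT1.0 of day 4 the adjusted p was 0.00185 for CYP26A1 and 0.000581 for HOXA2. OTX2 kept its gap, with 82.6 and 50.7 TPM in KO CT1.0 and 353 and 358 TPM in KO CT0.4 on day 8 (day 8 minus day 4 -0.23 ± 0.52 SE, adjusted p = 0.847). In KO ES cells OTX2 stood at 71.2 and 57.2 TPM and in KO IWP2 cells of day 4 at 110 and 170 TPM, so that among the KO groups of day 4 KO CT0.4 held the highest level. SP5 gave no call between the days (adjusted p = 0.855), and in KO IWP2 cells of day 4 it stood at 1.64 and 0.164 TPM.

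**Figure D5:**
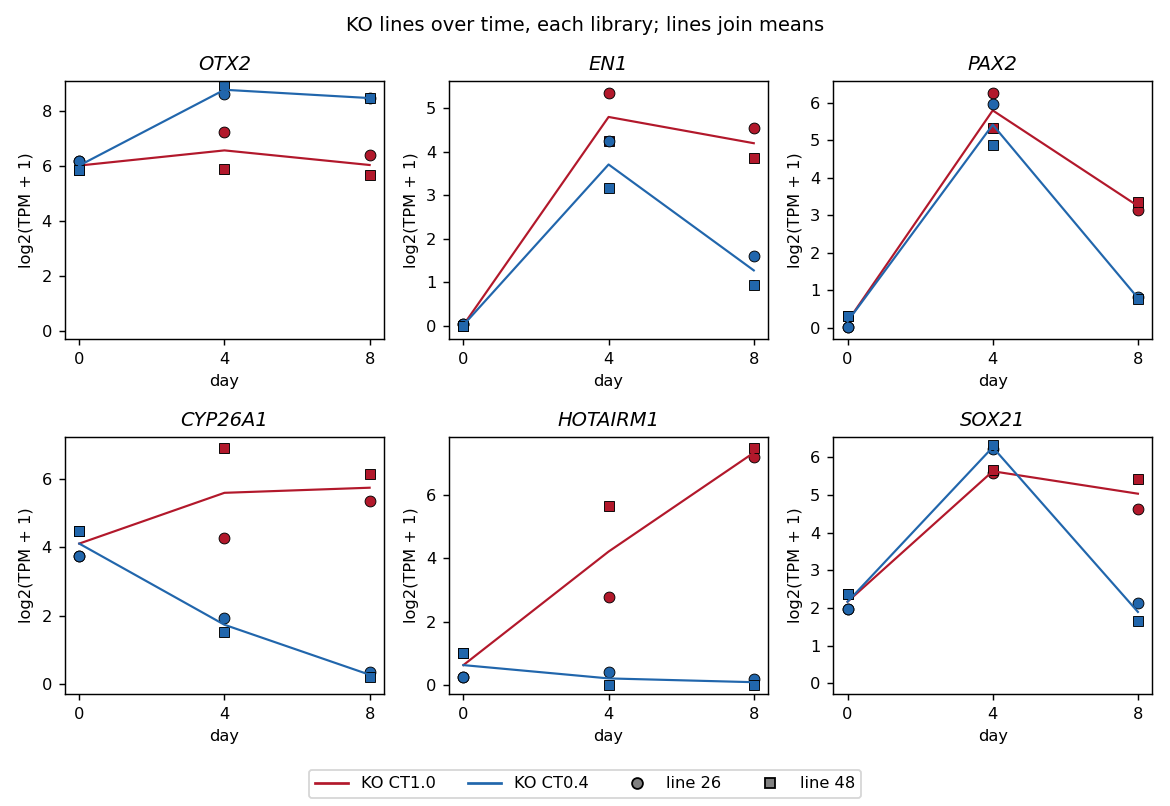
Levels of 6 genes as log2(TPM + 1) in KO ES cells (day 0) and under CT1.0 and CT0.4 on days 4 and 8, 1 point per library, with lines through the means of lines 26 and 48. The labels overlap for EN1 and PAX2 on day 4 and are apart on day 8, and HOTAIRM1 is high in CT1.0 on both days and near 0 in CT0.4.

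HES3 and SOX21 were among the genes with the highest day 8 minus day 4 values. HES3, a NOTCH pathway repressor of progenitors, held 14.2 and 73.5 TPM in KO CT1.0 and 0.422 and 0.322 TPM in KO CT0.4 on day 8, against 137 and 128 TPM in KO CT1.0 and 175 and 185 TPM in KO CT0.4 on day 4 (5.06 ± 0.80 SE, adjusted p = 0.000544). SOX21, a SOX B gene, held 23.9 and 42 TPM in KO CT1.0 and 3.4 and 2.13 TPM in KO CT0.4 on day 8, against 47.2 and 49.7 TPM in KO CT1.0 and 73.3 and 78.6 TPM in KO CT0.4 on day 4 (3.78, adjusted p = 7.72e-06). In both genes the KO CT0.4 lines of day 8 lay far below every other KO value given here. HES5, PCDH8 and SNORD15A gave 4.04, 4.02 and 4.05 (adjusted p = 0.00388, 0.00133 and 6.97e-05), and FEZF1 gave 3.70 (adjusted p = 1.05e-05).

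The genes with the lowest values were highest in KO CT0.4 on day 8, apart from SPOCK1 in 1 library of day 4. TTR, a choroid plexus carrier protein, was at 0 and 0.338 TPM in KO CT1.0 and 103 and 65.5 TPM in KO CT0.4 on day 8, and listed at 0 in all 4 libraries of day 4 (-6.17 ± 0.49 SE, adjusted p = 1.07e-06). FERD3L, a basic helix-loop-helix factor, TAC1, a neuropeptide precursor, VIT and SPOCK1 gave -5.59, -5.50, -5.36 and -5.17. SPOCK1 had changed sides, at 8.99 and 8.54 TPM in KO CT1.0 and 40.3 and 46.9 TPM in KO CT0.4 on day 8. The WNT genes WNT1 and AXIN2 and the roof plate factor LMX1A gave -3.29, -2.29 and -2.74 (adjusted p = 0.000551, 5.52e-05 and 0.00286), of which LMX1A was not called with a pseudocount of 0.1 (0.163). WNT1 held 132 and 57.6 TPM in KO CT1.0 and 632 and 511 TPM in KO CT0.4 on day 8, and AXIN2 68.3 and 60 TPM in KO CT1.0 and 430 and 419 TPM in KO CT0.4. On day 4 neither WNT1 nor AXIN2 had been called between the labels.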

How the data were processed

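Poly(A)-selected RNA of 28 libraries in 14 groups was sequenced, per the labels, as 2x100 or 2x150 base reads on 2 platforms, and which library had which is not given, so no batch was fitted. The authors deposited gene-level TPM for 58219 genes. CASAVA 1.7, Salmon 0.8.2 and hg38 are named, without roles, in the submitters' processing notes. TPM keeps no read depth, so counting precision is unknown.

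Columns were matched to samples by name, with 0 left unmatched. Log2(TPM + 1) was fitted in limma (version 3.58.1, under R 4.3.3), with 1 mean per group over all 28 libraries (14 residual degrees of freedom, 3.01 prior), an intensity trend and no covariate. A gene needed 1 TPM in at least 2 of the libraries compared. Tests were KO CT1.0 against KO CT0.4 on day 4, that difference in KO minus WT, and in KO on day 8 minus day 4, each with Benjamini-Hochberg adjustment at 0.05. Lists are described by counts and medians, without a set test. The fit was tested on simulated data, in which false calls were somewhat more frequent than the nominal rate in all 3 tests.

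An exact permutation test of 2 against 2 was not used, since it cannot reach the threshold.

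Named genes were SOX1, 6 marker genes, the 8 most raised and 8 most lowered called genes (past 1 on the log2 scale, labels not overlapping), up to 4 called and 2 uncalled members of each list, and the 5 highest and 5 lowest of each other test, leaving out repeated names, clones, pseudogenes, ribosomal protein and LINC genes. Other names, among them FGF8, FGF17, PAX5, WNT1, DLX5, LHX5, SOX3, RARB, SOX11, POU5F1, NANOG and large protein-coding changes such as FGFBP3, were chosen after their values were seen. Results of a few members of the lists are not reported here. The comparison, genes and lists were chosen with earlier results of these data known.

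Alternatives were a pseudocount of 0.1, no filter, a filter over all libraries, median-ratio scaling, a fit of the compared libraries or of KO alone, the replicate number as a block, each library left out, a minimum fold change and no trend with robust variances. 2 more were chosen after seeing the data, a fit of protein-coding genes alone and one without the 4 WT day 4 CT libraries.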

Additional observations from a re-analysis of the deposited data

Results flagged for a closer look

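The label difference on day 4 differed between KO and WT, by the test of the difference itself, in 14 of the genes named. KO minus WT was positive for OTX2 (3.43), OTX1 (3.09), DMBX1 (3.11), SP5 (4.70), PAX2 (3.01), LHX5 (3.25), LHX5-AS1 (3.38) and SHISA2 (2.58), all on the log2 scale. It was negative for FEZF2 (-2.95), SFRP4 (-3.85), HTR2C (-3.03), SNORD15A (-3.79), SOX1 (-3.45) and SOX3 (-1.82). SOX1 is the gene that the KO cells lack, so the sign of its value follows from the design.

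The label difference in KO differed between day 8 and day 4 in 17 of the genes named. Day 8 minus day 4 was positive for HES3 (5.06), HES5 (4.04), PCDH8 (4.02), SNORD15A (4.05), SOX21 (3.78), FEZF1 (3.70), HOTAIRM1 (3.25), PAX2 (2.07) and EN1 (1.83). It was negative for TTR (-6.17), FERD3L (-5.59), TAC1 (-5.50), VIT (-5.36), SPOCK1 (-5.17), WNT1 (-3.29), LMX1A (-2.74) and AXIN2 (-2.29).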

How the results depend on the processing

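Counts are given as higher and lower. KO CT1.0 against KO CT0.4 on day 4 called 228 and 394 genes, 0 and 0 with limma on the 4 libraries alone (1166 and 1390 at an unadjusted p under 0.05) and 0 and 0 with the replicate block on those (1233 and 1262). It called 67 and 69 with the 14 KO libraries, 145 and 136 at a log2 fold change of at least 1, and 39 to 174 and 47 to 284 with a library left out. With the replicate block over all libraries it called 234 and 449. KO minus WT called 62 and 29, 13 lower with a pseudocount of 0.1, 68 lower with median-ratio scaling, 48 lower with the replicate block, 0 and 0 with the compared libraries alone, without (1710 and 899 unadjusted) or with the block (1621 and 966), 123 and 56 with protein-coding genes alone (a setting chosen after seeing the data), and 5 to 190 and 2 to 132 with a library left out. Day 8 minus day 4 called 530 and 2018, 851 and 998 with median-ratio scaling, 138 and 580 with the compared libraries, 138 and 449 with the replicate block on those, 351 and 1278 with KO alone, 317 and 1052 at a log2 fold change of at least 1, and 373 to 495 and 1351 to 2068 with a library left out. With the block over all libraries FGF17 (0.0584) and MIR4261 (0.0528) were not called, EN1 was called in KO minus WT (0.0382), and no other call among the genes named ended. The labels do not say that the replicate numbers pair the samples, and the differences between lines 26 and 48 in the 2 labels correlated at 0.0947 over the 10210 genes that averaged 10 TPM or more. Of 64 genes called on day 4 and examined by name, 34 were not called with the 14 KO libraries alone. Among them, besides those given above, were DMBX1, DLX5, FEZF2, LHX5, CRABP2, RSPO2, LMX1A, WNT7B, SFRP4, CNTN2, MAB21L2, NOTCH1, LFNG, BMP2, CCNB1, PLK1, ZBTB16, ZNF521, SOX11, DPPA4, HSPA1A and 5 MIR genes. With a pseudocount of 0.1, 12 were not called, among them MSX1, NKX6-1, LHX5, BMP2, ZBTB16 and ZNF521. No filter ended 10 calls, a filter over all libraries 9, untrended robust variances 10, median-ratio scaling 2 (ZNF521 and CCNB1) and leaving out the 4 WT libraries 12, with CRABP2, LFNG, LHX5, ZNF521 and CCNB1 lost in each of these but the scaling. In KO minus WT, LHX5-AS1 was not called without a filter (0.055) or with robust variances (0.0606), and SOX3 not with robust variances (0.0537), and in day 8 minus day 4 EN1 was not called without a filter (0.0607). With the compared libraries alone all 64 calls of day 4, all 14 in KO minus WT and, in day 8 minus day 4, those of EN1, PAX2, HOTAIRM1, SPOCK1, LMX1A, HES5 and WNT1 ended. No called value of a named gene changed sign under any of these settings. A left-out library leaves a group with 1 sample, which is assumed to vary like the other groups. The cause was not tested beyond the fewer libraries or genes that a setting has by construction. Depth is unknown, so changes of genes near 1 TPM cannot be weighed by counts.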
